A study of Homo sapiens with 4 samples.

Results

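NLR proteins are the family to which CIITA, the activator of HLA class II transcription, belongs. The genes described here are the 10 other NLR genes NLRC5, NLRC3, NLRX1, NLRP11, NLRP1, NLRP3, NOD1, NOD2, NAIP and NLRC4. They were chosen by their symbol in the platform annotation, with earlier results of these data known, and CIITA itself was left out. They are read by 21 probe sets of the 41091 that carry 1 gene, in a table of 54613 probe sets, and every one of the 10 genes has at least 1. RNA came from KM-H2, an established Hodgkin lymphoma cell line in which CIITA is fused to the transcript BX648577. The 2 control arrays hold cells with a non-silencing control, labelled replicates 1 and 2. The 2 knockdown arrays hold cells transduced with a lentiviral vector whose hairpin is aimed at exon sequence of BX648577 within the fusion, also labelled replicates 1 and 2. Both groups are the same line, and only 1 hairpin was used. The labels do not say whether replicates are separate transductions, so p-values measure only the spread between these arrays, which may be technical.

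The hairpin is an inverted repeat, and its first 23-base arm is shown because it is what separates the groups, as the labels give it.
hairpin arm: gacagccacctcactatcaaata

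NLR proteins share a central nucleotide-binding domain, through which they assemble into larger complexes, and a leucine-rich repeat region. Most act in innate immunity: some recruit caspase-1 through the adaptor ASC and form inflammasomes, NOD1 and NOD2 sense peptidoglycan fragments and signal through the kinase RIPK2, and several dampen signalling. CIITA and NLRC5 are the members known as transcriptional activators, CIITA of class II and NLRC5 of class I antigen presentation genes. Inflammasome-forming members are best known from monocytes, macrophages and neutrophils, and several NLRP genes are known from oocytes and early embryos.

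Mean intensities of the arrays lay between 53.3 and 54.6, and from 971 to 1080 probe sets per array sat at exactly 1, a floor. The table has no detection calls. The level that an unexpressed gene can show was therefore described with a panel of genes of other organs (albumin, insulin, protamines and the like), of which 26 had a probe set. The 40 probe sets of that panel had medians from 4.42 to 5.62 on the 4 arrays and 90th percentiles from 12.5 to 14.5. Probe sets differ in how strongly they respond, so levels of different genes are not ranked. All 7 Hodgkin cell markers listed had a tested probe set. Of their 11 tested probe sets, 9 were higher in knockdown and 2 lower. The median difference was 0.13 on the log2(intensity + 16) scale, and neither limma fit called any of them higher. TNFRSF8, which encodes CD30, read 110, 115, 134 and 115 on control replicates 1 and 2 and knockdown replicates 1 and 2. The chemokine gene CCL17 read 16.4, 12.4, 18.01 and 15.9, close to the panel's 90th percentile. FSCN1, an actin-bundling protein gene, was called lower by the intensity-trend fit at its brighter probe set, with 644 and 618 in control and 507 and 500.5 in knockdown (limma adjusted p = 0.0170, and 0.311 in the common-prior fit). Its dimmer probe set read 34.1 and 21.8 in control and 38.1 and 40.4 in knockdown and was not called. The targeted transcript's own probe set, annotated PIERCE2, read 880 and 947 in control and 621 and 590 in knockdown, a difference of -0.58 on the log2(intensity + 16) scale. That difference passed limma's intensity-trend fit (adjusted p = 0.000141) but not its common-prior fit (adjusted p = 0.273). CIITA's brightest probe set read 59.6 and 65.1 in control and 60.7 and 53.6 in knockdown.

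Most NLR genes were dim in KM-H2. Only 4 of the 21 probe sets, 1 each of NLRC5, NLRX1, NLRP1 and NOD1, lay above the panel's 90th percentile on all 4 arrays. Another 9 did so on 1 to 3 arrays and 8 on no array. Probe sets dimmer on average than the median probe set of the table (an intensity of 8.26) were not tested, which left 14 probe sets of 6 genes. All probe sets of NLRC3, NLRP3, NOD2 and NLRC4 fell below that filter. Their levels were not distinguishable here from those of the panel, which does not show that the transcripts were absent.

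**Figure D1:**
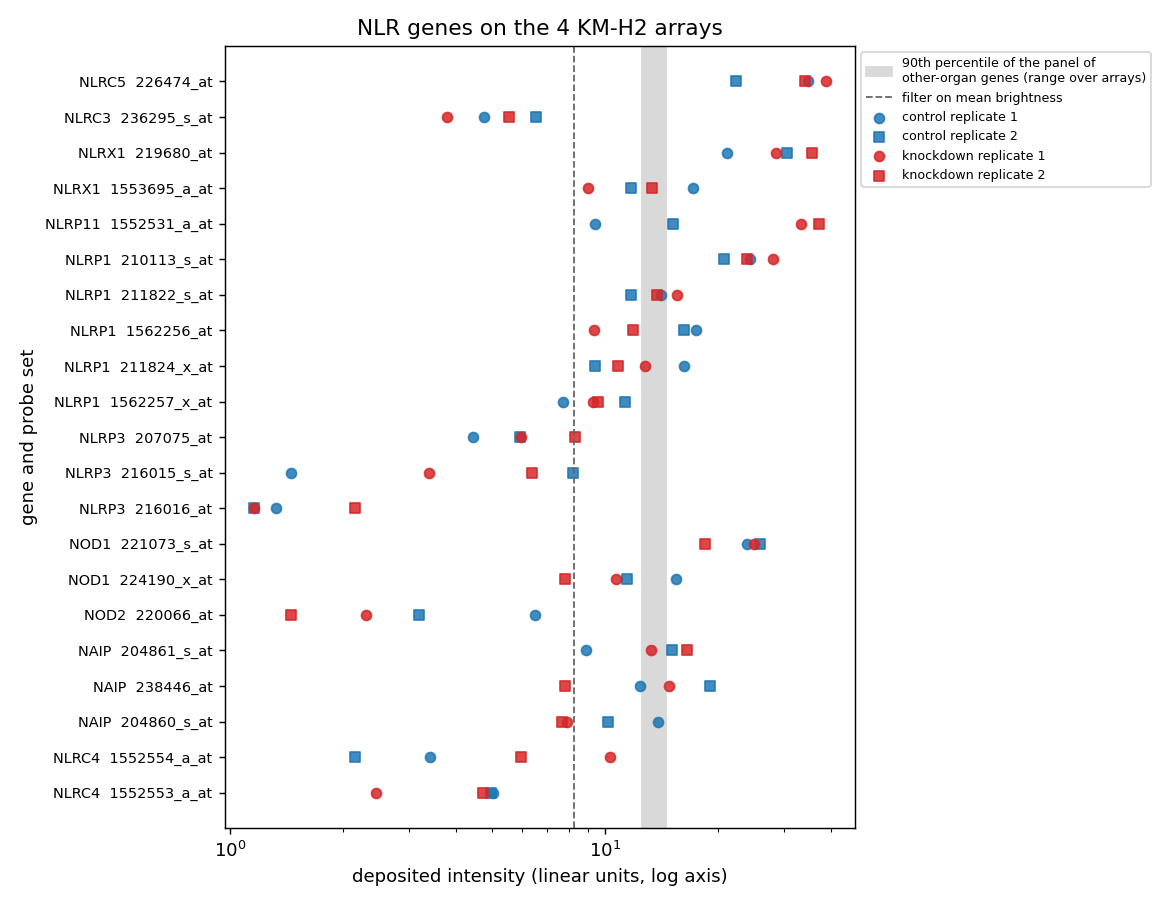
Deposited intensity (x axis, log scale) of each of the 21 NLR probe sets (y axis, grouped by gene) on the 4 arrays, blue for control and red for knockdown, circles for replicate 1 and squares for replicate 2. The dashed line is the filter at 8.26 and the grey band the panel's 90th percentile over the arrays (12.5 to 14.5). The top probe sets of NLRC5, NLRX1, NLRP1 and NOD1 lie to the right of the band on every array. NLRP11 does so in knockdown and, narrowly, on control replicate 2.

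Differences are those of log2(intensity + 16), knockdown less control, a scale which understates changes of dim probe sets, and were fitted in limma over 27307 probe sets with Benjamini-Hochberg adjustment and a threshold of 0.05. The common-prior fit, with 1 prior variance for all probe sets, called 0.00732% of all probe sets, 2 in number, and 0 of the 14 NLR probe sets. At an unadjusted p below 0.05 the common-prior fit had 2 NLR probe sets, those of NLRP11 and one of NLRP1, beside 13.3% of all tested probe sets. The intensity-trend fit, whose prior variance follows brightness, called 2.16% of all probe sets and 1 of the 14 NLR probe sets, that of NLRP11. It called 1.29% of all probe sets higher and 0.872% lower. The tested NLR probe sets had a median difference of -0.02, with 6 above 0 and 8 below, beside a median of -0.00 over all tested probe sets. The NLR median turned to 0.03 with quantile normalization and with median centring, and to 0.0060 without knockdown replicate 2. The knockdown arrays lay on 1 side of both control arrays at 4 of the 14 NLR probe sets, while 46.1% of all tested probe sets did so.

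**Figure D2:**
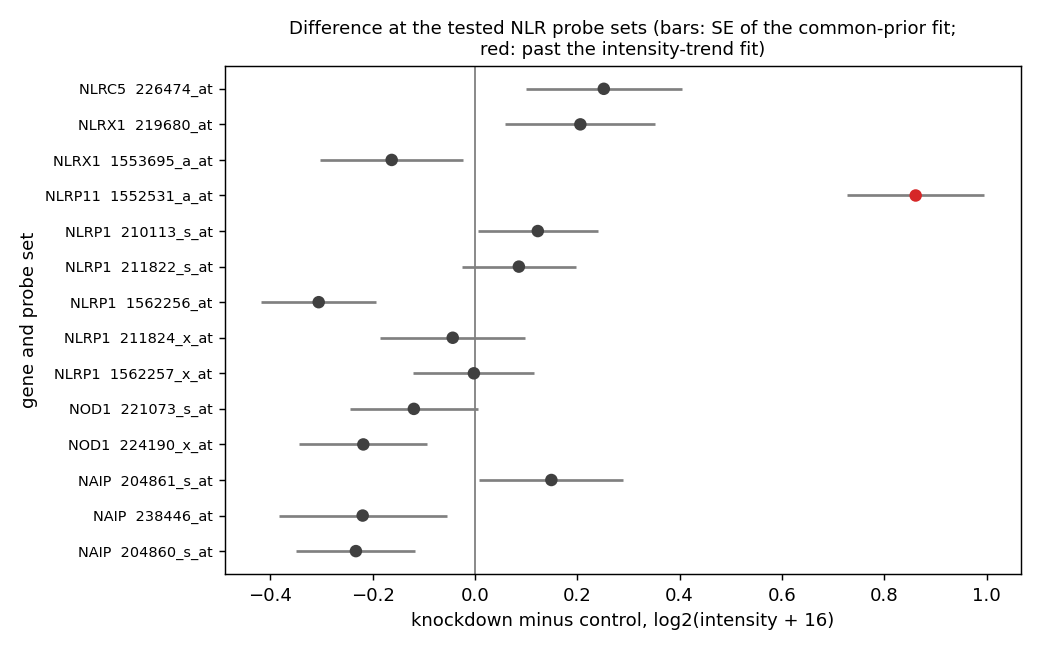
Difference in log2(intensity + 16), knockdown less control (x axis), for the 14 tested NLR probe sets (y axis), with bars for the SE of the common-prior fit. NLRP11 stands at 0.86 and is the only one past the intensity-trend fit (red), and the other 13 lie between -0.31 and 0.25.

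NLRP11 was the member whose level differed most between the groups. NLRP11 is a pyrin-domain member found in primates and reported to restrain NF-kB signalling in myeloid cells. Its only probe set, 1552531_a_at, read 9.41 and 15.2 in control and 33.2 and 37.2 in knockdown. The control values lie around the panel's 90th percentile, whereas both knockdown values exceed the highest panel value on their arrays, 19.0 and 17.0. The groups did not overlap. Control replicate 2 lay below the highest panel value on its array, 28.4. Group means were 12.3 ± 4.09 and 35.2 ± 2.87 (SD, n = 2), a difference of 0.86 (SE 0.13). The probe set passed limma's intensity-trend fit (adjusted p = 0.00642) and not the common-prior fit (adjusted p = 0.273). In order of signed difference it stood at place 9 from the top of all tested probe sets. Among the 1905 other probe sets within 0.1 of its mean log2 level, 2 had an absolute difference as large. In RNA from whole cultures, more cells with the transcript and more RNA per cell cannot be told apart.

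The call depended on how the variance was modelled. The common-prior fit called NLRP11 only with a pseudocount of 64 (adjusted p = 0.00762). Of 12 intensity-trend fits in which it was tested it passed 11, with each single array left out among them, and the exception was the fit with no filter (adjusted p = 0.0629). Adjusted p-values of these trend fits ran from 6.47e-05 to 0.0629, and those of the common-prior fits from 0.00762 to 0.788.

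T cell and NK cell markers were examined beside NLRP11 since lymphocytes are among the cells reported to express it. Of 8 such genes only CD3D and NCR1 had a tested probe set. NCR1 gave differences of opposite sign, 0.18 at 217088_s_at and -0.19 at 217095_x_at. CD3D, a chain of the T cell receptor complex, read 194 and 183 in control and 253 and 225 in knockdown (adjusted p = 0.322 in limma's common-prior fit and 0.0600 in the intensity-trend fit). The other 7 summed, at their brightest probe sets, to 37.7 and 39.6 in control and 51.6 and 43.6 in knockdown, and CD3E, a chain of that same complex, read 1.00, 3.53, 14.01 and 1.00. Of 6 B cell marker genes 5 were tested, by 6 probe sets with a median difference of -0.07, 2 above 0 and 4 below. Neither fit called any of these, beside 0.00732% and 2.16% of all probe sets. The part of these T, NK and B cell markers in the NLRP11 difference was not tested.

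NLRP11 lies on chromosome 19 in a run of NLRP genes, and in the RefSeq annotation (GRCh38.p14) it stands head to head with NLRP4. The promoter windows of both genes run from 250 bases before the start to 50 after it. They are shown because they overlap and because both genes read higher on both knockdown arrays than on both controls. Of all tested probe sets, 23.3% did so. The NLRP11 window is chr19:55836526-55836825 on the minus strand, and that of NLRP4 is chr19:55836290-55836589 on the plus strand. Capitals mark the 64 bases they share, which read as reverse complements of each other.
NLRP11: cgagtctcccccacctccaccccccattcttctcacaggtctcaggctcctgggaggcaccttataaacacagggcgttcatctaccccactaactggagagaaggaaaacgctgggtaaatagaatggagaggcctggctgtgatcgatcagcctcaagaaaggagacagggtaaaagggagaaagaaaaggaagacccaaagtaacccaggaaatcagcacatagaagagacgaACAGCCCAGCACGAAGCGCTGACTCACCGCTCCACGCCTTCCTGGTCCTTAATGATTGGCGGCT
NLRP4: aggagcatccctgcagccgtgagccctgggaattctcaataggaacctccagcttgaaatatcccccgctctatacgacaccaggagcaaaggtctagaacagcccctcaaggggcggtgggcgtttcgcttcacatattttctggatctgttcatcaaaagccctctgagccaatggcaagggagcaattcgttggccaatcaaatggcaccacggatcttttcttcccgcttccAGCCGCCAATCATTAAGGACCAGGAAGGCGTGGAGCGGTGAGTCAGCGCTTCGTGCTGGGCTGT

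The annotated start sites lie so close that the first 36 transcribed bases of the genes are shared on opposite strands. The RefSeq table also holds a second NLRP11 start, which does not overlap the NLRP4 window. Searched on both strands, CCAAT occurs 3 times upstream of the NLRP4 start, at 79, 53 and 9 bases before it, and the copy nearest the start lies in the shared bases. CCAAT is present in 34.6% of the 35116 promoter windows of this length. TATAAA lies 188 bases before the NLRP11 start, and 11.5% of windows hold it. TTCNNNGAA, the interferon gamma activation site, is in neither window and in 7.66% of all windows.

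NLRP4, a pyrin-domain protein known from oocytes, read 9.67 and 13.9 in control and 27.0 and 20.1 in knockdown. The groups did not overlap, and the means were 11.8 ± 2.998 and 23.5 ± 4.84 (SD, n = 2), a difference of 0.51 (SE 0.14). It passed neither fit (limma adjusted p = 0.285 and 0.109). NLRP13, the next gene on the far side of NLRP4, read 8.56 and 10.8 in control and 12.1 and 11.5 in knockdown, a difference of 0.12. Its groups did not overlap either. NLRP8, beyond it, and NLRP9, on the other side of NLRP11, lay below the filter and had differences of -0.04 and -0.19. NLRP4 was named by the rule for related genes, and the comparison with its neighbours was made after its values were seen. Its probe set and that of NLRP11 are separate, and whether the adjoining starts bear on either level was not tested.

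**Figure D3:**
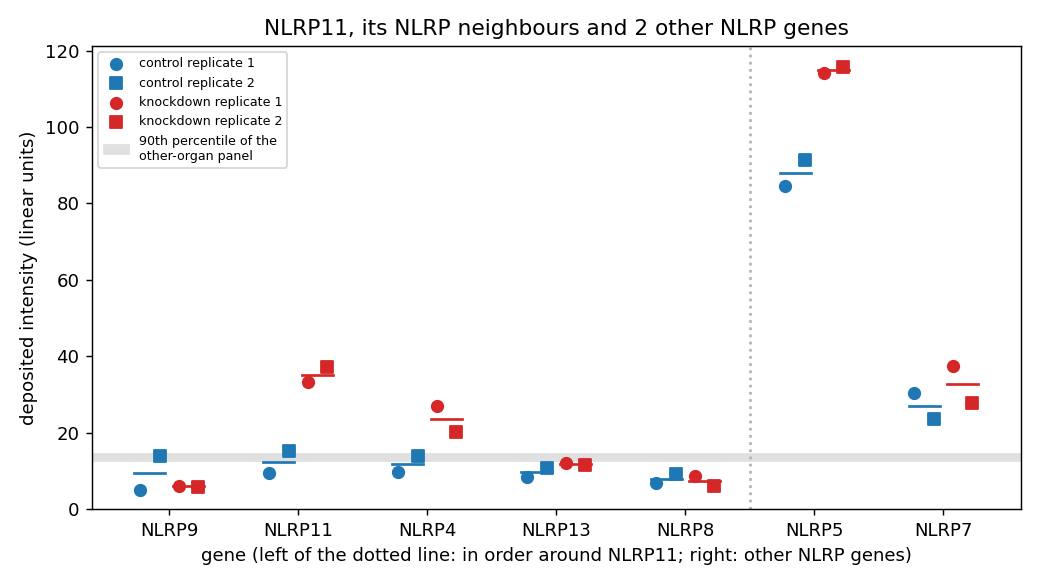
Deposited intensity (y axis) of NLRP11, of NLRP9, NLRP4, NLRP13 and NLRP8 in their order along chromosome 19, and of NLRP5 and NLRP7 to the right of the dotted line, with control in blue, knockdown in red and short bars for the means of 2 arrays. NLRP11, NLRP4 and NLRP5 have both knockdown arrays above both controls and above the grey band (the panel's 90th percentile, 12.5 to 14.5). For NLRP5 the controls lie above the band as well. NLRP13 also has both knockdown arrays above both controls, but NLRP9, NLRP13 and NLRP8 do not leave the low range.

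The NLR genes outside the 10 were mostly dim as well. All 11 had a probe set, and 6 of 13 probe sets were tested. Their median difference was 0.15, with 4 above 0, and it was 0.07 without knockdown replicate 1 and 0.24 without knockdown replicate 2. Of these, 0 were called by either fit of limma, beside 0.00732% and 2.16% of all probe sets. NLRP5, an oocyte gene, read 84.6 and 91.5 in control and 114 and 116 in knockdown, also without overlap. Its difference was 0.33 (SE 0.11) and passed neither fit (adjusted p = 0.304 and 0.0915).

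By array pattern, the named genes closest to NLRP11 were LINC00621, EYA2 and STIP1. The measure was the Euclidean distance over the 4 arrays after each probe set was centred on its own log2 mean, and it gave 0.19, 0.19 and 0.20. With 4 arrays in 2 groups this finds genes with a like difference between the groups. LINC00621, a non-coding RNA, read 159 and 164 in control and 290 and 332 in knockdown. EYA2, a phosphatase and transcriptional coactivator, read 37.5 and 43.0 in control and 73.0 and 78.6 in knockdown. STIP1, a co-chaperone that links HSP70 and HSP90, read 35.5 and 41.1 in control and 69.3 and 74.5 in knockdown.

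NLRC5, the class I counterpart of CIITA, was measurable on all arrays and not separated between the groups. Its probe set, 226474_at, read 34.6 and 22.3 in control and 38.8 and 34.1 in knockdown. Control replicate 1 lay inside the knockdown range, and control replicate 2 was the low array. Means were 28.4 ± 8.70 and 36.5 ± 3.32 (SD, n = 2), a difference of 0.25 (SE 0.15; limma common-prior adjusted p = 0.509, intensity-trend adjusted p = 0.427). Without control replicate 2 the difference was 0.05, and without control replicate 1 it was 0.45. The genes closest to it in pattern were PDLIM1, ZNF326 and PRG4, at distances of 0.03. Being chosen for that pattern, each also had control replicate 2 as its low array, PRG4 for example reading 179, 128, 196 and 173.

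NLRC5 is known to activate class I antigen presentation genes, of which some probe sets were called by the intensity-trend fit. The 8 genes described (HLA-B, HLA-C, HLA-E, HLA-F, HLA-G, B2M, TAP1 and PSMB9) had 22 tested probe sets, of which 21 had a difference above 0. The median was 0.13, beside -0.00 over all tested probe sets, and lay between 0.10 and 0.19 with another scaling or a single array left out. The common-prior fit called 0 of them and the intensity-trend fit 5, all higher, where it called 1.29% of all probe sets higher. These were 2 of HLA-B and 3 of HLA-G, all ending in _x_at, and the other 17 passed neither fit. The common-prior fit called these 5 only with a pseudocount of 64 (limma adjusted p from 0.0296 to 0.0441). The HLA-B probe set 208729_x_at read 569 and 580 in control and 691 and 727 in knockdown (0.30, intensity-trend adjusted p = 0.0224), and 211911_x_at read 723 and 707 against 847 and 893. HLA-B's brightest probe set, 209140_x_at, read 1329 and 1377 in control and 1440 and 1417 in knockdown (0.08, adjusted p = 0.509). Probe sets ending in _x_at can bind related transcripts, so class I genes are not told apart by them, and counts of them are not counts of genes. The HLA-G probe set 210514_x_at read 114 and 138 in control and 161 and 194 in knockdown (0.44, limma intensity-trend adjusted p = 0.0370). At 211528_x_at it read 352 and 409 in control and 505 and 460 in knockdown, and at 211530_x_at 36.9 and 54.0 against 72.8 and 73.4. The probe sets outside that type passed neither fit. HLA-E, a ligand of NK cell receptors, read 192 and 189 in control and 197 and 185 in knockdown at 200904_at (0.0027). B2M, the class I light chain, gave differences of 0.05, 0.04 and 0.15 at its 3 probe sets. TAP1, a peptide transporter subunit, gave 0.08 and PSMB9, an immunoproteasome subunit, 0.10.

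The genes of the interferon gamma pathway, through which NLRC5 and CIITA are known to be induced, had 9 tested probe sets of 5 genes, of which limma's common-prior and intensity-trend fits called 0, beside 0.00732% and 2.16% of all probe sets. Their median was 0.12, and 0.07 without control replicate 1. JAK1, a kinase of that receptor, read 70.4 and 52.4 in control and 83.9 and 91.7 in knockdown at 1552610_a_at (0.43, adjusted p = 0.304 and 0.0736). Its brightest probe set went the other way, with 360 and 411 in control and 327 and 321 in knockdown (-0.24). IFNGR1, a receptor chain, read 15.8 and 13.9 in control and 22.5 and 16.6 in knockdown at 211676_s_at (0.20).

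NLRX1, a mitochondrial member known to restrain antiviral signalling, had 2 tested probe sets with differences of opposite sign, neither called. Its brightest, 219680_at, read 21.1 and 30.5 in control and 28.5 and 35.6 in knockdown, and the groups overlapped (0.21, SE 0.15, adjusted p = 0.572 in limma's common-prior fit). The dimmer 1553695_a_at read 17.2 and 11.7 in control and 8.99 and 13.3 in knockdown (-0.16, SE 0.14, adjusted p = 0.644). Without control replicate 1 these differences were 0.04 and -0.03. NLRC3, which is known to dampen STING and T cell signalling, read 4.75 and 6.56 in control and 3.78 and 5.56 in knockdown, all below the panel's 90th percentile.

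The antiviral adaptors and sensors on which these regulators act were mostly measurable. Of 10 such genes 9 were tested, by 21 probe sets with a median of 0.04. That median was -0.0060 without control replicate 2, -0.04 without knockdown replicate 1 and 0.09 without control replicate 1. The common-prior fit called 0 of the 21, and the intensity-trend fit called 1, higher, beside 1.29% of all probe sets. This was FAF1, a ubiquitin-binding protein reported to bind NLRX1, at 131 and 107 in control and 168 and 162 in knockdown (0.42, adjusted p = 0.0349). The common-prior fit called it only with a pseudocount of 64 (limma adjusted p = 0.0271). Its other tested probe set gave 136 and 135 in control and 151 and 147 in knockdown (0.12). STING1 read 60.6 and 55.5 in control and 65.9 and 55.1 in knockdown at 224916_at, and 70.3 and 69.7 against 83.1 and 96.1 at 224929_at, neither of which passed. MAVS, the mitochondrial adaptor, read 32.2 and 28.8 in control and 32.6 and 28.4 in knockdown where its signal was brightest. Of the 21 probe sets, 14 had a difference above 0 and 7 below. Among the latter, TBK1 read 124 and 172 in control and 119 and 94.8 in knockdown (-0.41). RIGI read 25.8 and 18.1 in control and 15.8 and 8.17 in knockdown at 222793_at (-0.45), and its other tested probe sets gave 0.29 and 0.15. None of these passed either fit.

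NLRP1 had the most probe sets, 5, all tested and none called. NLRP1 forms an inflammasome after cleavage by proteases and is held back by DPP9. Its brightest, 210113_s_at, read 24.2 and 20.7 in control and 27.9 and 23.9 in knockdown, with overlap (0.12, SE 0.12). The dim 1562256_at differed the other way without overlap, reading 17.5 and 16.2 in control and 9.36 and 11.9 in knockdown (-0.31, SE 0.11). Its limma adjusted p was 0.328 in the common-prior fit and 0.355 in the intensity-trend fit, from an unadjusted 0.0286 and 0.0671. At 211822_s_at it read 14.04 and 11.7 in control and 15.6 and 13.7 in knockdown (0.09). At 211824_x_at it read 16.2 and 9.40 in control and 12.8 and 10.8 in knockdown (-0.04), and at 1562257_x_at 7.73 and 11.3 against 9.27 and 9.58 (-0.00). The signs of these last 2 turned with the scaling.

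NAIP, the sensor of flagellin and of bacterial secretion needles, had 3 tested probe sets, none called. They gave 0.15, -0.22 and -0.23. The first, 204861_s_at, read 8.88 and 15.1 in control and 13.2 and 16.5 in knockdown. The second, 238446_at, read 12.4 and 19.01 in control and 14.8 and 7.81 in knockdown. The third, 204860_s_at, read 13.8 and 10.2 in control and 7.91 and 7.68 in knockdown, the only one of these without overlap. NAIP has near-identical partial copies beside it in the genome, so its level is uncertain. NLRC4, the partner that NAIP recruits, was below the filter. Its probe sets read 3.42 and 2.16 in control and 10.3 and 5.95 in knockdown at 1552554_a_at, and 5.03 and 4.97 against 2.45 and 4.72 at 1552553_a_at, opposite in direction and all under the panel's 90th percentile.

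NLRP3, the best known inflammasome sensor, was near the floor. Its probe sets read 4.44 and 5.94 in control and 5.95 and 8.30 in knockdown at 207075_at, from 1.46 to 8.19 at 216015_s_at, and from 1.16 to 2.16 at 216016_at. Myeloid markers were in part at that level too. Of 10 such genes 4 had a tested probe set, and the 10 summed to 192 and 182 in control and 171 and 173 in knockdown at their brightest probe sets, with CSF1R, which read 84.8, 75.7, 82.2 and 87.8, as the largest part. ITGAM, an integrin chain of myeloid cells, read 40.7 and 37.0 in control and 30.5 and 30.7 in knockdown at its brighter probe set. CD14, a monocyte receptor for lipopolysaccharide, read 21.6 and 27.0 in control and 19.3 and 21.8 in knockdown. CSF1R, ITGAM and CD14 exceeded the panel's 90th percentile on all 4 arrays, while LYZ, which encodes lysozyme, did not exceed 8.15 on any.

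Partners of the inflammasome were present in part. The 18 listed genes all had a probe set and 12 were tested, by 21 probe sets with a median of 0.04, of which limma's common-prior and intensity-trend fits both called 0, beside 0.00732% and 2.16% of all probe sets. That median ran from 0.0011 with quantile normalization to 0.11 without control replicate 1. PYCARD, which encodes the adaptor ASC, read 4.07 and 1.19 in control and 1.20 and 1.00 in knockdown. The cytokine gene IL18 read from 1.61 to 6.44. CASP1, the caspase of inflammasomes, had 5 tested probe sets. Its 211367_s_at read 12.7 and 10.4 in control and 20.2 and 20.8 in knockdown (0.41, adjusted p = 0.285 and 0.180), while the brightest, 209970_x_at, read 73.8 and 55.9 in control and 62.1 and 71.3 in knockdown (0.04). CASP4, a sensor of lipopolysaccharide inside cells, read 11.1 and 12.7 in control and 16.3 and 20.0 in knockdown (0.29, adjusted p = 0.348 and 0.373). IL1B, the cytokine that caspase-1 matures, was high on control replicate 2 alone at 39402_at, with 18.2 and 43.7 in control and 17.1 and 18.03 in knockdown. Its other probe set, 205067_at, was below the filter and read 4.19 and 6.30 in control and 6.36 and 3.34 in knockdown. PYCARD, IL18 and IL1B were named after their values were seen, for their roles.

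NOD1 was measurable and NOD2 was not. At 221073_s_at NOD1 read 23.9 and 25.8 in control and 24.9 and 18.5 in knockdown, with overlap (-0.12, SE 0.13, limma common-prior adjusted p = 0.711). At the dimmer 224190_x_at it read 15.4 and 11.4 in control and 10.7 and 7.84 in knockdown, without overlap (-0.22, SE 0.13, adjusted p = 0.485). NOD2, known from monocytes and Paneth cells, read 6.52 and 3.19 in control and 2.30 and 1.46 in knockdown, below the filter.

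Among genes downstream of NOD1 and NOD2, the kinase RIPK2 and the ligase BIRC2 read above every panel value on all 4 arrays. Of 18 listed genes 15 had a probe set of their own and 13 were tested, by 29 probe sets with a median of -0.03 that turned to 0.03 with median centring and was -0.09 without control replicate 1. RIPK2, the kinase that NOD1 and NOD2 recruit, read 240 and 237 in control and 239 and 232 in knockdown at 209545_s_at, a difference of -0.02. The common-prior fit called 0 of the 29 and the intensity-trend fit 1, lower, where it called 0.872% of all probe sets lower. This was BIRC2, the ubiquitin ligase cIAP1, at 327 and 367 in control and 293 and 248 in knockdown (-0.34, adjusted p = 0.0483). The common-prior fit called it only with a pseudocount of 64 (limma adjusted p = 0.0478). RIPK2 was named after its values were seen.

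**Figure D4:**
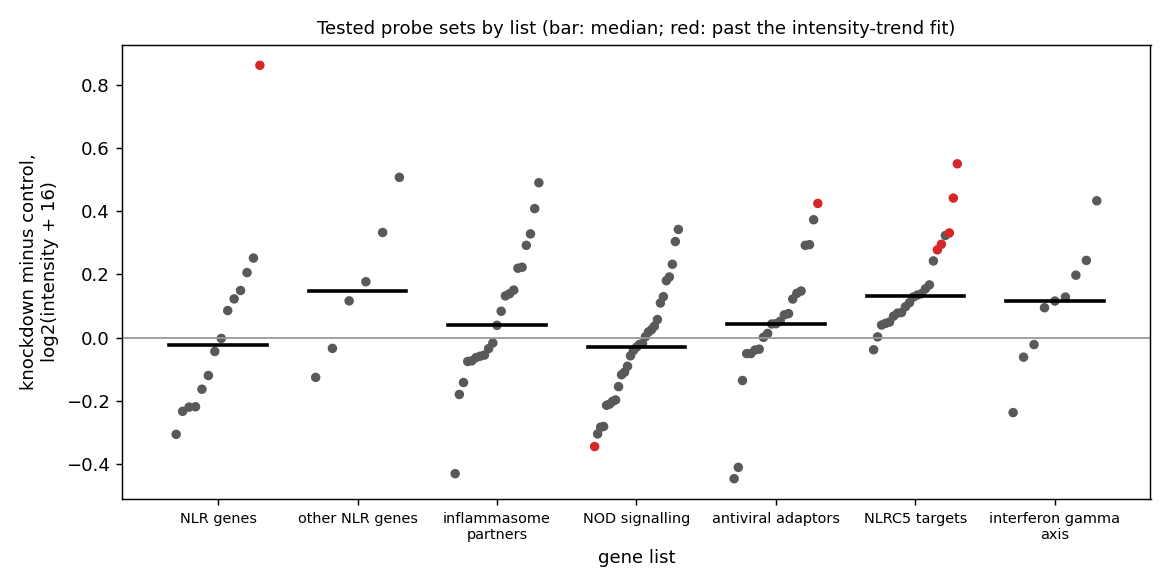
Difference in log2(intensity + 16), knockdown less control (y axis), for each tested probe set of the NLR genes and of 6 lists of related genes (x axis), sorted within a list, with black bars for the medians and red for probe sets past the intensity-trend fit. The medians run from -0.03 for NOD signalling to 0.15 for the other NLR genes, and the red points are NLRP11, BIRC2, FAF1 and 5 class I probe sets.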

How the data were processed

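The deposited values are linear intensities, 1 per probe set and array, on single-colour Affymetrix arrays hybridised with biotinylated cRNA, per the labels' protocols. The summary method that turned scans into values was not given in the sources used here. Genes were taken from the platform annotation, in which 41091 probe sets have 1 gene, 1801 several and 11721 none. All 21 NLR probe sets matched their gene in RefSeq (GRCh38.p14) by gene number. Intensities became log2(intensity + 16), array medians lay within 0.2 of each other and were not centred, and probe sets below the median of all means (4.60) were left out. R 4.3.3 and limma 3.58.1 (lmFit, then eBayes) were used over 27307 probe sets. Every NLR probe set above the filter is given on all arrays, with related genes that either fit called or, failing that, the 2 of largest moderated t per list. Outside this rule, HLA-E, B2M, TAP1, PSMB9, STING1, MAVS, TBK1, RIGI, PYCARD, IL18, IL1B and RIPK2 were also named. The members and lists were chosen with earlier results of these data known. Alternatives were a trended or robust prior, other filters, normalizations and pseudocounts, 1 probe set per gene, a replicate block and leaving out each array. Combinations with the trended prior were added after seeing the data. In 10 simulations of this comparison over 27307 probe sets, with 200 changed, the common-prior fit recovered 72.8% of differences of 1 and the intensity-trend fit 91.2%. For differences of 0.5 these shares were 1.97% and 33.5%. On average 1.1 unchanged probe sets per simulation were called by the common-prior fit and 7.3 by the intensity-trend fit. The simulations drew their variances from the intensity-trend fit, so they match the model of that fit and not that of the common-prior fit. The number of arrays limits the precision.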

Additional observations from a re-analysis of the deposited data

How the results depend on the processing

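Across the alternatives in which NLRP11 was tested its direction was kept, between 0.38 with a pseudocount of 64 and 1.48 with a pseudocount of 1, and between 0.71 and 1.01 with single arrays left out. NLR probe sets called higher numbered 1 with the intensity-trend fit and with a pseudocount of 64, and 0 lower in every setting, and 1 in each added intensity-trend fit with quantile normalization, median centring, 1 probe set per gene, either pseudocount, the replicate block or a single array left out, against 0 with no filter or the filter at the 75th percentile. Over all probe sets the count was 353 higher and 238 lower with the intensity-trend fit, 408 and 255 with a pseudocount of 64, 48 and 14 with the filter at the 75th percentile (which leaves NLRP11 out), 0 lower with no filter or a pseudocount of 1, and from 0 to 2 higher and 0 to 1 lower with single arrays left out. The cause was not tested. The replicate block changed no call of the common-prior fit (0 NLR probe sets, 0 higher and 2 lower in all), and same-numbered arrays did not deviate together (r = -0.01). Signs turned at 4 NLR probe sets. NLRP1 1562257_x_at gave 0.054 with quantile normalization, 0.055 with median centring and 0.0074 with a pseudocount of 1, and -0.10 to 0.10 with single arrays left out. NLRP1 211824_x_at gave 0.0070 with quantile normalization and 0.014 with median centring, and -0.22 to 0.13 with arrays left out. With arrays left out NAIP 204861_s_at gave -0.011 to 0.31 and NOD1 221073_s_at -0.24 to 0.0045.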
